A study of Rattus norvegicus with 16 samples.

Results

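Respiratory complex I was followed here through every probe set whose only gene symbol begins with Nduf, the prefix given to its nuclear-encoded subunits and to several of its assembly factors. These were 46 of the 31042 probe sets tested and 42 of the 14217 genes with a single symbol, and each gene was read from its brightest probe set, that with the highest mean over 16 arrays. The members were 10 genes of the NADH-oxidising module, 5 of the ubiquinone-reducing module, 7 of the proximal and 12 of the distal membrane arm, 6 assembly factors, and Ndufa4 with its relative Ndufa4l2. By the same rule Ndufaf2 and Ndufaf6 were not among the members, and 2 probe sets with several symbols, those for Ndufa10 and Ndufs5, were left out.

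The samples were soleus muscles, a postural muscle rich in slow oxidative fibres, from female rats of generation 16 of selection for running capacity, at about 7 months of age. The HCR line was bred for high and the LCR line for low capacity from the N: NIH stock, so the lines differ at unnamed loci and no single allele was changed. In each line 4 rats ran treadmill intervals uphill at 85 to 90% of maximal oxygen uptake, 5 days per week for 8 weeks, and 4 age-matched rats stayed sedentary; muscle was taken 48 hours after the last session. Each rat gave 1 array, n = 4 rats in every group, and values are log2 signals on Affymetrix arrays.

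Complex I oxidises NADH at the start of the mitochondrial respiratory chain, passes the electrons through flavin and iron-sulphur clusters to ubiquinone, and pumps protons across the inner membrane. Its matrix arm holds the NADH and ubiquinone modules, its membrane arm holds the pumps, and assembly factors put the parts together without staying in the finished enzyme. Endurance training is known to raise the mitochondrial content of skeletal muscle, and complex I is one of its usual readouts.

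The subunits were among the brightest transcripts of the soleus. The mean over 16 arrays ran from 6.58 for Ndufaf1, an assembly factor, to 13.32 for Ndufb9, a distal subunit, which lie at the 63.0 and 99.8 percentiles of the means of all probe sets. All 12 distal, 7 proximal, 5 ubiquinone-module and 10 NADH-module genes had means of at least 8.54, the value of Ndufs4. Among the assembly factors Ndufaf3 was at 10.23, Ndufaf4 at 9.46, Ndufaf8 at 9.43, Ndufaf5 at 7.97 and Ndufaf7 at 6.89. Ndufa4l2, a paralogue known from hypoxic cells, was at 6.94 and Ndufa4, now known as a partner of complex IV, at 13.05. A signal depends on the probes as well as on the transcript, so these means place probe sets on the array and do not order the genes by RNA amount. In RefSeq, 20 of the 42 genes have a pseudogene or like-named copy, 11 of them for Ndufb4, and signal from those copies could not be told apart here. The muscle markers Ckm, Acta1, Mb and Des had high signals on every array, between 12.64 and 14.53, and the labels name soleus muscle.

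Some members also shared letters in their promoters. RefSeq gave, on the build GRCr8, the 250 bases before and 50 after the start of 40 of the 42 genes. The letters GCGCANGCG, to which the respiratory factor NRF1 binds, were found on either strand in 10 of these 40 windows, 25.0%, against 5.8% of all 33469 promoter windows and 7.62% of the 21851 of protein-coding genes. The letters AANATGGCG, a form of the YY1 site, were in 12 windows, 30.0%, against 3.01% of all and 3.67% of protein-coding windows, and in 10 genes they lay within the 50 bases after the start. The GABP letters CCGGAAGT were in 3 windows, 7.5% against 3.81% of all, and the ERR letters TCAAGGTCA in 0 windows against 0.433% of all. CCAAT was in 32.5% against 37.5% of all windows, and TATAAA in 7.5% against 14.2%. Ndufs6 and Ndufa6 had both the NRF1 and the YY1 letters, 20 genes had at least 1 of these motifs and 20 had neither. The median GC content was 56.7% in the members' windows and 51.7% in all windows, and the part of base composition in these shares was not tested. The YY1 letters also hold ATG, and their place relative to the start of the coding sequence was not tested. A match of letters is a description and not a measured site.

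The windows below show the layout and were chosen after the values were seen. They are Ndufa12 (chr7:30658066-30658365, plus strand) and Ndufv3 (chr20:9613536-9613835, plus strand), the members with the smallest p and the largest difference in HCR training, then Ndufs6 (chr1:31797150-31797449, plus strand) with both motifs, and Ndufs7 (chr7:10110449-10110748, minus strand) and Ndufa9 (chr4:161374121-161374420, minus strand) with YY1 letters just after the start. Each reads 5' to 3' along its gene. Capitals mark the NRF1 or YY1 letters on either strand. With the first gene base as position 1, the capitals begin at -111 in Ndufa12, -39 in Ndufv3, -25 and 24 in Ndufs6, 5 in Ndufs7 and 11 in Ndufa9.
Ndufa12: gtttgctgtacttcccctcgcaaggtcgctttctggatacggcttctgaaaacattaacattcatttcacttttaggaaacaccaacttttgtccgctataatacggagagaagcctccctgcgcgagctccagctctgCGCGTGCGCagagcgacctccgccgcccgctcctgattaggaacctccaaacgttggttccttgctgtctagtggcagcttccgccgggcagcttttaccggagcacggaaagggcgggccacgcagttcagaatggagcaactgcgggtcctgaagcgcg
Ndufv3: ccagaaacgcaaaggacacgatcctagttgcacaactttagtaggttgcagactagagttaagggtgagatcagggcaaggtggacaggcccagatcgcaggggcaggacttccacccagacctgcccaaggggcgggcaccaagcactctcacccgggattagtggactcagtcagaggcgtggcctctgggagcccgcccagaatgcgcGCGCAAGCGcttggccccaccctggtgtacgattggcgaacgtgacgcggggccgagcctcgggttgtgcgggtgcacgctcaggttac
Ndufs6: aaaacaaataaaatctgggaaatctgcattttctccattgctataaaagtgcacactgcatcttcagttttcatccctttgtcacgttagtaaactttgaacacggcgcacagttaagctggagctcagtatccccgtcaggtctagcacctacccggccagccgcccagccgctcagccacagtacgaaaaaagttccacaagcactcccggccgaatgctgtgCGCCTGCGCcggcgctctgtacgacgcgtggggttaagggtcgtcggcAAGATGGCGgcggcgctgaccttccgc
Ndufs7: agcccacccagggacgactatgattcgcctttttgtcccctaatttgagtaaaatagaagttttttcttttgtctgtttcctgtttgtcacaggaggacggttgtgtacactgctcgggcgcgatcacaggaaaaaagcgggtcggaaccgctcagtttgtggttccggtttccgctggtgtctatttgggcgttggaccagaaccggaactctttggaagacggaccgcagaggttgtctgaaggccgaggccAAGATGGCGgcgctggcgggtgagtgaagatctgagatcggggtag
Ndufa9: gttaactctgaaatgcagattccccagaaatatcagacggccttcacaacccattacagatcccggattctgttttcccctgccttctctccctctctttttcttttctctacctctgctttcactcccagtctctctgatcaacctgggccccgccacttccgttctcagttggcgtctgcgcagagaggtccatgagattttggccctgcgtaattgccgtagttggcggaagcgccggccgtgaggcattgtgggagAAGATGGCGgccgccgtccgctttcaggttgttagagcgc

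Before any comparison, 1 array needs its own account, because it was the lowest for most of these genes. On HCR sedentary 2 the signal was the lowest of all 16 arrays for 37 of 42 members, and 1 of 42 was above its own median over the arrays. After each gene's mean was subtracted, the 42 members averaged -0.47 on that array and between -0.12 and 0.12 on the other 15. The same array had the highest mean of 8 matrix and fibroblast markers. That mean ran from -0.47 to 1.75 in HCR sedentary, -0.84 to -0.38 in HCR trained, -0.73 to 0.24 in LCR sedentary and -0.31 to 1.36 in LCR trained rats. The mean of 9 macrophage and leukocyte markers was likewise highest there, at 1.13 against -0.70 to 0.56. The mean of its 4 muscle markers, 0.04, was within the range of the others, but desmin (Des), at 13.80, was the highest of 16 arrays and myoglobin (Mb), at 13.93, the second lowest. Its slow-fibre markers averaged -0.01, against 0.12 to 0.24 in the other sedentary HCR rats, and its fast myosin Myh4 was at 8.03, against 4.76 to 5.05. Its beta-actin index, the 3' minus the middle control probe set, was 0.38 against 1.06 to 2.37. A like index between the ends of the GAPDH control transcript was 0.56 on that array, within the 0.48 to 1.67 of the others. The 1.67 was on HCR trained 2. LCR trained 2 stood second in matrix markers, at 1.36, and had the lowest members' mean of the rest, -0.12. The part of these markers and of the control indices in the complex I values was not tested. In a bulk extract, fewer muscle fibres and less complex I RNA per fibre cannot be told apart.

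**Figure D1:**
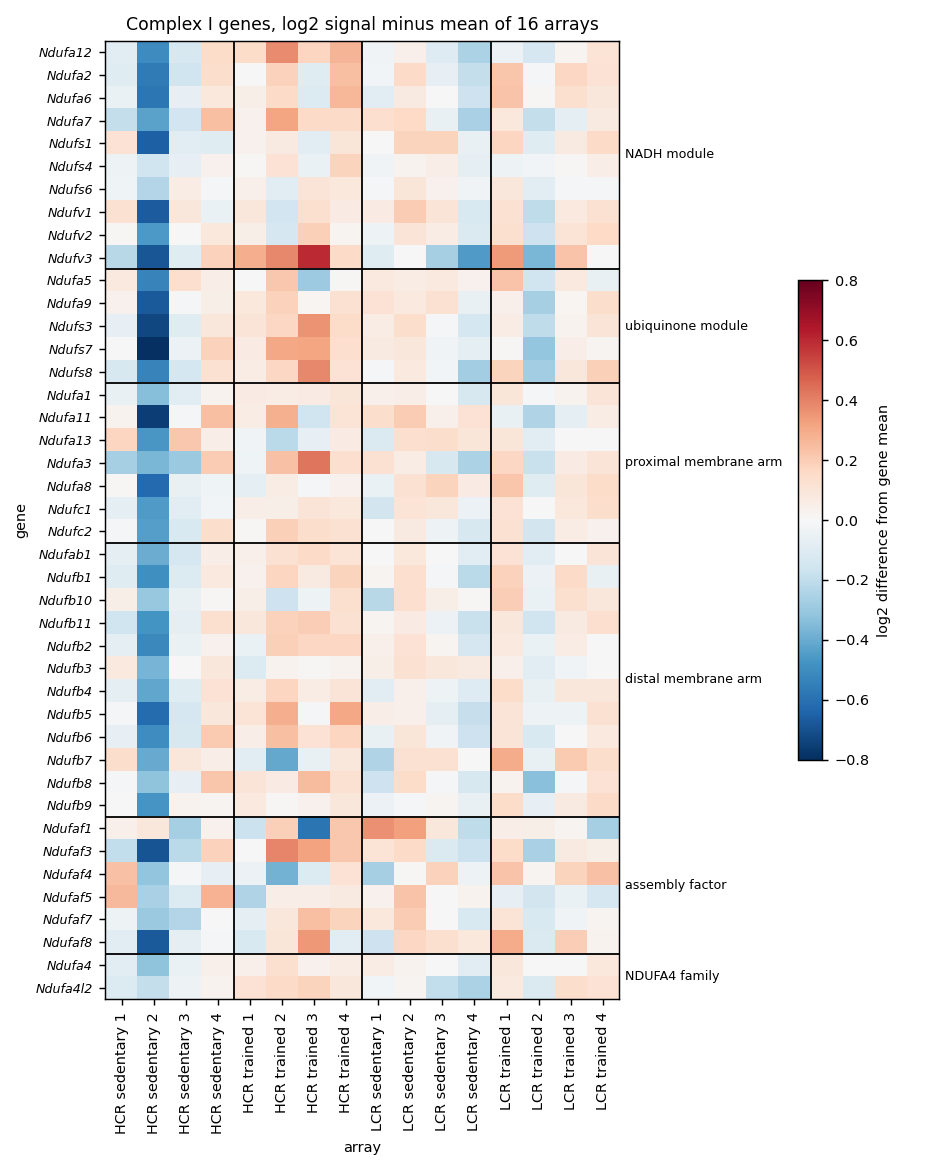
Each row is 1 of the 42 complex I genes, ordered by role, and each column 1 array; colour gives the log2 signal minus that gene's mean over 16 arrays. The column of HCR sedentary 2 is low in nearly every row, where its 42 genes average -0.47, and no other column averages below -0.12.

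**Figure D2:**
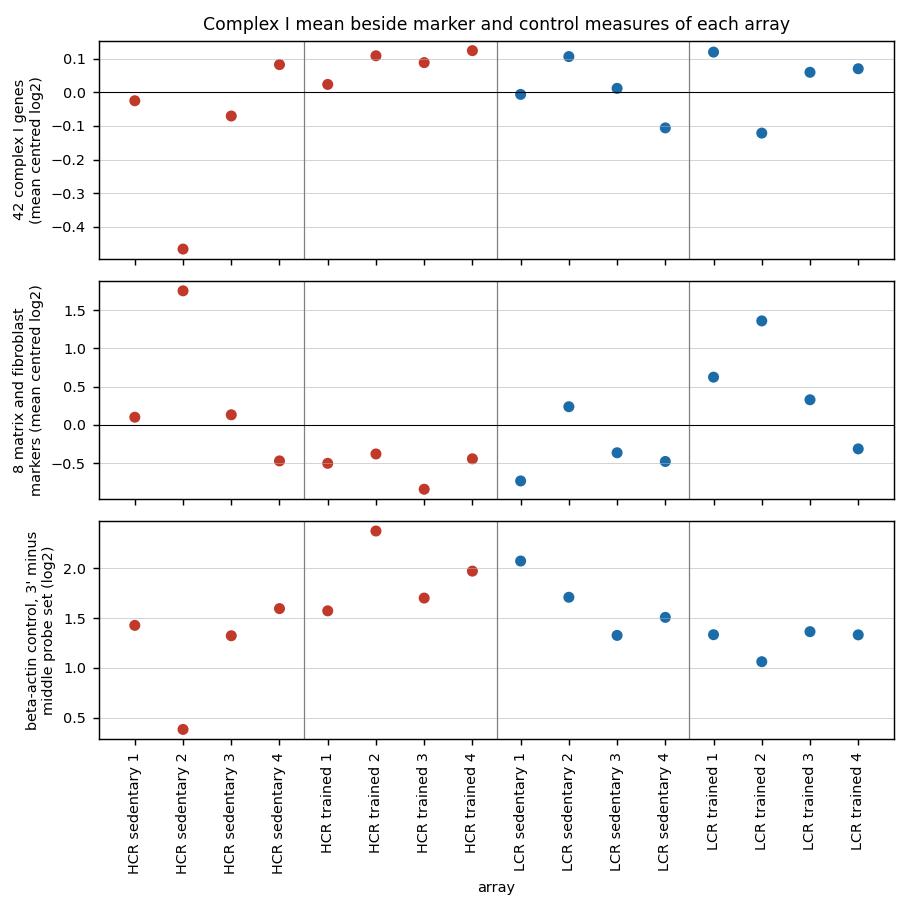
Each point is 1 array; red is HCR and blue is LCR. The panels give the mean of the 42 complex I genes, the mean of 8 matrix and fibroblast markers (both centred on each gene's mean, log2) and the beta-actin index (log2), and HCR sedentary 2 is at the extreme of all 3 panels, at -0.47, 1.75 and 0.38.

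The mean of the fast-fibre markers was also higher in trained than in sedentary HCR rats. The mean of 9 such markers ran from 0.34 to 2.68 in trained and from -0.82 to 0.38 in sedentary HCR rats, which overlap through HCR sedentary 2, and from -1.11 to 0.01 in all LCR rats. Myh4, the fast myosin of type 2B fibres, was at 4.76, 8.03, 4.88 and 5.05 in sedentary and 11.08, 8.43, 13.57 and 9.98 in trained HCR rats, without overlap. Its difference of 5.09 ± 0.87 (SE) passed, with an adjusted p of 0.0475 in limma, and it passed in 5 of 16 fits that left out 1 rat, with differences of 4.15 to 5.87. Pvalb was at 5.15 to 7.05 in sedentary and 7.82 to 13.80 in trained HCR rats, and Actn3 at 6.22 to 9.02 and 9.53 to 14.27. For each of the other fast-fibre markers the HCR groups overlapped. As a list the fast-fibre markers were higher for 6 of 9 in HCR training, with a median of 0.15. Myh2, Tnni2 and Tnnc2 were lower, down to -0.08. In LCR training 8 of 9 were higher, with a median of 0.26 and none passing. The 8 slow-fibre markers were lower for 8 of 8 in HCR training, with a median of -0.58 and none passing. Without HCR trained 3 that median was 0.02 and 5 of 8 were higher. The part of fibre type in the HCR training differences of complex I was not tested.

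HCR trained 3 stood apart in fibre type and not in the complex I mean. Its 9 fast-fibre markers averaged 2.68, where the other trained HCR rats had 0.34 to 1.19, and its 8 slow-fibre markers averaged -2.29, where those rats had 0.10 to 0.20. The complex I members averaged 0.09 on that array and 0.02 to 0.12 in those rats. It was still the highest of 16 arrays for 13 members, among them Ndufs3 at 12.48, Ndufs8 at 11.64 and Ndufv3 at 11.96, and the lowest for Ndufaf1, at 5.99.

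What training did within the HCR line was asked first. None of the 42 members passed an adjusted p of 0.05 (limma, Benjamini-Hochberg over all probe sets), where 0.187% of all probe sets passed, and the smallest adjusted p was 0.126, for Ndufa12. The direction was mostly one way: trained rats were higher for 37 of 42 members, with a median log2 difference of 0.22 and a range of -0.09 to 0.56. Over all 14217 genes 55.2% were higher and the median was 0.02. At an unadjusted p under 0.05, 21 members were higher and 0 lower, that is 21 of 42 and 0 of 42, where 10.5% of all probe sets were higher and 7.24% lower at that p. The 4 genes whose trained and sedentary values did not overlap were Ndufa1, Ndufa4l2, Ndufc1 and Ndufs3, all higher in trained rats, against 4.94% of all probe sets.

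These HCR differences rest in good part on HCR sedentary 2. Without it the median over members was 0.11, 32 of 42 were higher in trained rats, and 7 (Ndufa12, Ndufa3, Ndufa4l2, Ndufab1, Ndufaf3, Ndufs3 and Ndufv3) were higher and 1 (Ndufa13) lower at an unadjusted p under 0.05, where 7.86% of all probe sets were higher and 5.06% lower. Without HCR trained 3 as well, the median was 0.12, and 2 members (Ndufa12 and Ndufb5) were higher and 1 (Ndufa13) lower at that p, where 10.6% of all probe sets were higher and 6.73% lower. With the beta-actin index entered into the model the median was 0.02, 24 of 42 were positive, and 0 were higher and 1 (Ndufaf5) lower at that p, where 3.93% of all probe sets were higher and 3.30% lower. The index itself differed between the groups, with means of 1.18 ± 0.54 in HCR sedentary and 1.90 ± 0.35 in HCR trained rats (SD, n = 4). Without HCR sedentary 4, the highest sedentary HCR array, the median was 0.30 and Ndufa12 passed, with a difference of 0.48 and an adjusted p of 0.0463 in limma.

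In the NADH module all 10 genes were higher in trained HCR rats, with a median difference of 0.23, and 3 (Ndufa12, Ndufa7 and Ndufv3) had an unadjusted p under 0.05. Ndufa12, an accessory subunit added late in assembly, was at 12.61, 12.19, 12.56 and 12.84 in HCR sedentary rats and at 12.84, 13.07, 12.86 and 12.96 in HCR trained rats. Sedentary 4 and trained 1 met at 12.84 and the rest did not overlap. The difference was 0.38 ± 0.11 (SE), 1.30-fold, with an unadjusted p of 0.0043 in limma, and 0.26 without HCR sedentary 2. Ndufv3, an accessory subunit of the flavin end, was at 11.14, 10.68, 11.27 and 11.55 in sedentary and 11.66, 11.75, 11.96 and 11.52 in trained HCR rats. Only sedentary 4 reached into the trained range, and the difference, 0.56 ± 0.18 (SE), 1.48-fold, was the largest of the 42, with an adjusted p of 0.145 in limma, and 0.40 without HCR sedentary 2. A second Ndufv3 probe set, with a lower mean of 7.66, ran the other way in HCR, by -0.19, at an unadjusted p of 0.561 in limma, and which transcripts each of these probe sets reads was not tested. Ndufv1, which binds NADH and the flavin, differed by 0.16 ± 0.15 (SE) and Ndufs1, the largest iron-sulphur subunit, by 0.21 ± 0.13 (SE). Without HCR sedentary 2 these were -0.02 and 0.05. Ndufs4, an accessory subunit whose loss causes Leigh syndrome, differed by 0.12 ± 0.06 (SE), and it had the smallest spread within groups of all members, an SD of 0.07.

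The ubiquinone module, where the iron-sulphur chain ends, had the largest median in HCR training, 0.35, with 5 of 5 genes higher. Ndufs3, a core subunit of this module, was at 12.06, 11.39, 12.03 and 12.22 in HCR sedentary and 12.22, 12.29, 12.48 and 12.27 in HCR trained rats. The lowest trained value lay just above the highest sedentary one, and both round to 12.22. Its difference was 0.39, and those of Ndufs7 and Ndufs8, which carry iron-sulphur clusters, were 0.37 and 0.35. Ndufa9, an accessory subunit at the joint of the arms, differed by 0.25 ± 0.14 (SE), with HCR sedentary 2 at 11.70 and the other sedentary HCR rats between 12.37 and 12.42. Without that rat Ndufa9 differed by 0.08 and the median of the module was 0.16.

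In the membrane arm, the proximal arm had a median of 0.20 with 6 of 7 genes higher, and the distal arm 0.23 with 11 of 12 higher. Ndufa1, a small membrane subunit, was between 12.62 and 12.99 in sedentary and between 13.02 and 13.06 in trained HCR rats, without overlap. Ndufc1 was likewise between 11.53 and 11.97 in sedentary and between 12.03 and 12.09 in trained rats. Ndufb8, often used as a protein marker of complex I, differed by 0.18 ± 0.12 (SE), and Ndufb9 by 0.16 ± 0.09 (SE), or 0.09 and 0.04 without HCR sedentary 2. Ndufb7, a distal subunit facing the intermembrane space, differed by -0.09 ± 0.13 (SE), or -0.21 without HCR sedentary 2, with values of 12.07, 11.53, 12.02 and 11.99 sedentary and 11.85, 11.53, 11.87 and 12.03 trained. Its groups overlapped throughout. Ndufa13 was the one proximal gene below 0, at -0.05.

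Assembly factors were divided, with 3 of 6 higher and a median of 0.10. Ndufaf3, which acts early on the ubiquinone module, was at 10.03, 9.53, 10.01 and 10.41 in HCR sedentary and 10.23, 10.62, 10.55 and 10.45 in HCR trained rats. Its difference of 0.47 ± 0.15 (SE), 1.38-fold, was second in size among the members, with an adjusted p of 0.149 in limma, and its groups overlapped through sedentary 4 and trained 1. Without HCR sedentary 2 it was 0.31. Ndufaf7, a methyltransferase acting on a core subunit, was at 6.85, 6.60, 6.66 and 6.89 in sedentary and 6.81, 6.98, 7.13 and 7.07 in trained HCR rats, a difference of 0.25 ± 0.09 (SE), or 0.20 without HCR sedentary 2. Its second probe set, with a lower mean of 5.32, differed by 0.26, in the same direction. Ndufaf1, Ndufaf4 and Ndufaf5 each differed by -0.06, less than their SE of 0.17, 0.12 and 0.11. Without HCR sedentary 2, which was low for the latter pair, they were -0.02, -0.16 and -0.16. Of the NDUFA4 pair, Ndufa4l2 was between 6.75 and 6.97 in sedentary and between 7.02 and 7.11 in trained HCR rats, and Ndufa4 differed by 0.17 ± 0.07 (SE).

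**Figure D3:**
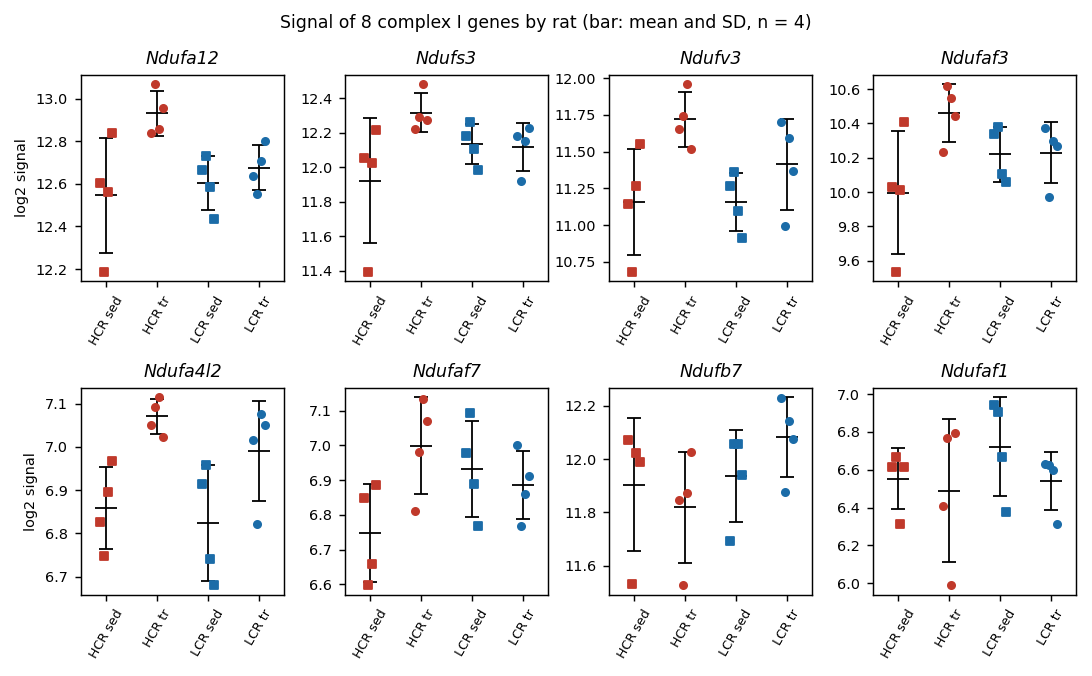
Log2 signal of 8 complex I genes in each rat, by group (HCR red, LCR blue; squares sedentary, circles trained), with bars for the mean and SD of n = 4 rats. The lowest HCR sedentary point in most panels is rat 2, as for Ndufs3 at 11.39, and the trained HCR values of Ndufa4l2, 7.02 to 7.11, lie above all HCR sedentary values.

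In the LCR line the same comparison gave small differences on both sides of 0. None of the 42 members passed, where 0.00322% of all probe sets did, and the smallest adjusted p in limma was 0.501. Trained rats were higher for 28 of 42 members with a median of 0.04 and a range of -0.20 to 0.26, while over all genes 41.3% were higher and the median was -0.03. The 95% interval of the difference lay within 1.5-fold either way for 41 of 42 members, all but Ndufv3. In HCR training it did so for 34 of 42.

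By role the LCR medians were 0.03 in the NADH module, -0.04 in the ubiquinone module, 0.04 and 0.07 in the proximal and distal arms, and -0.02 in the assembly factors. Ndufa4l2 was the one member with an unadjusted p under 0.05, where 3.54% of all probe sets were higher and 6.22% lower at that p. It was at 6.91, 6.96, 6.74 and 6.68 in LCR sedentary and 7.02, 6.82, 7.08 and 7.05 in LCR trained rats, with a difference of 0.17 ± 0.08 (SE). Ndufv3 again had the largest positive difference, 0.26 ± 0.18 (SE), with trained values of 11.70, 11.00, 11.59 and 11.37 that overlapped the sedentary ones. Its second, dimmer probe set ran the other way here too, by -0.38, at an unadjusted p of 0.249 in limma. Ndufaf4 differed by 0.19 ± 0.12 (SE). Trained LCR rats lay wholly below sedentary ones for Ndufaf5, at 7.83 to 7.92 against 7.97 to 8.20, and, with ends that round to the same value, for Ndufb3, at 12.74 to 12.87 against 12.87 to 12.95, where 5.61% of all probe sets did the same. Ndufaf5 acts on Ndufs7 as a hydroxylase, and Ndufb3 is a small distal subunit. Their differences, -0.17 ± 0.11 and -0.10 ± 0.08 (SE), and that of Ndufa11, -0.20 ± 0.16 (SE), did not pass.

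**Figure D4:**
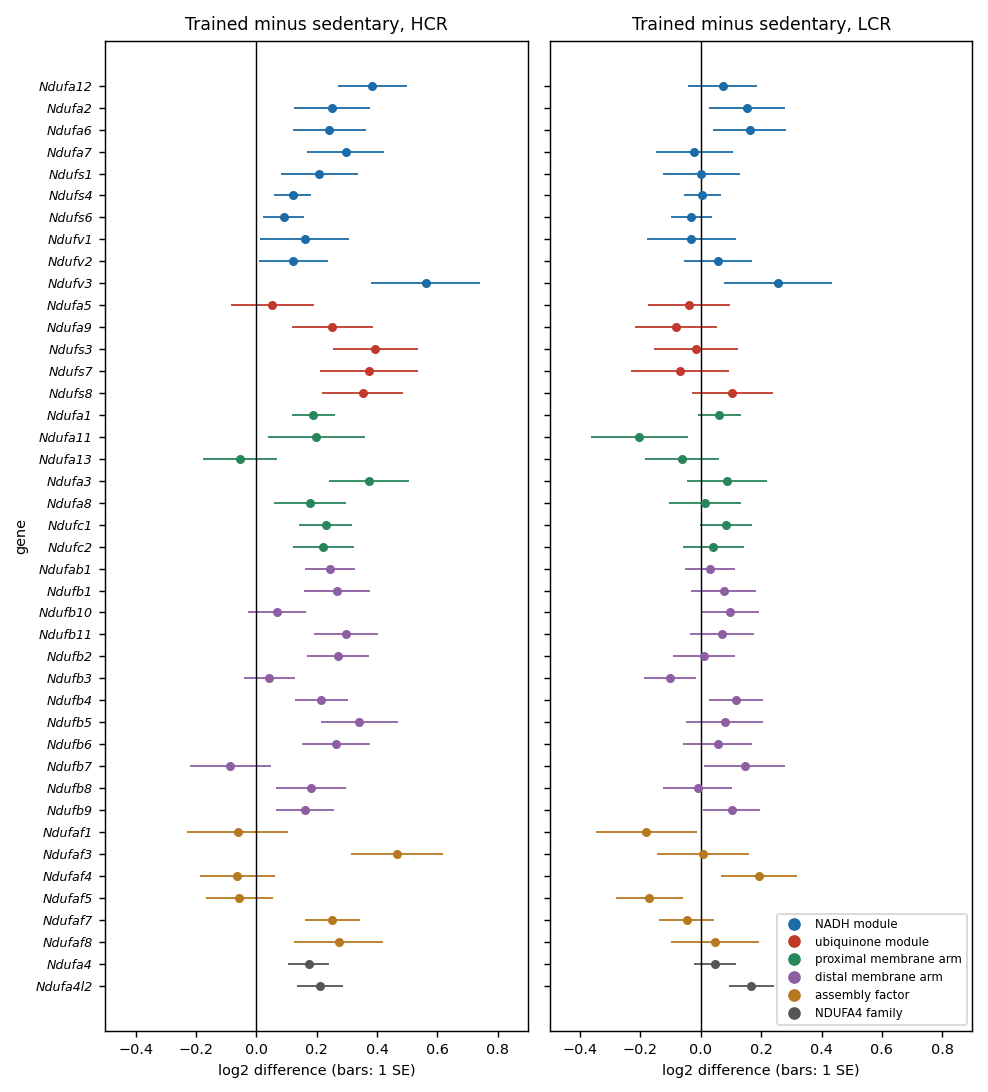
Log2 difference of trained minus sedentary rats for each of the 42 complex I genes, HCR on the left and LCR on the right, with bars of 1 SE from limma and colours by role. In HCR 37 of 42 points lie right of 0 with a median of 0.22, and in LCR 28 of 42 with a median of 0.04.

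Whether the lines responded differently was tested by the interaction, the HCR minus the LCR training difference. No member passed, nor did any other probe set (0%), at an adjusted p of 0.05 in limma. The median over members was 0.19 with 39 of 42 positive, and over all genes 0.06 with 60.4% positive. Ndufaf7 was the one member with an unadjusted p under 0.05, at 0.30 ± 0.13 (SE) and an adjusted p of 0.241, where 10.8% of all probe sets were higher at that p. Ndufaf3 followed with 0.46 ± 0.22 (SE) and Ndufs3 with 0.41 ± 0.20 (SE). Without HCR sedentary 2 these 3 differences were 0.25, 0.30 and 0.23. The second, dimmer Ndufaf7 probe set gave 0.21 over all 16 arrays, at an unadjusted p of 0.122 in limma. Ndufaf4, -0.26 ± 0.18 (SE), Ndufb7, -0.23 ± 0.19 (SE), and Ndufb10, -0.03 ± 0.14 (SE), were the 3 negative ones. The 95% interval lay within 1.5-fold for 25 of 42 members, and reached past it for the other 17. Without HCR sedentary 2 the median was 0.07, without LCR trained 2 it was 0.12, and with the beta-actin index in the model -0.15 with 2 of 42 positive. The mean of that index was 1.18 in sedentary and 1.90 in trained HCR rats, but 1.65 in sedentary and 1.27 in trained LCR rats. Because the index differed along the same contrast, the fit with it cannot separate the index from the interaction. Of the matrix and fibroblast markers, 8 of 8 were lower in HCR training, with a median of -0.83. In LCR training 8 of 8 were higher, with a median of 0.83. Their interaction was negative for 8 of 8, with a median of -1.65 and none passing. For macrophage and leukocyte markers it was negative for 9 of 9, with a median of -0.88. HCR sedentary 2 and LCR trained 2 had the highest matrix means. The part of these markers in the complex I interaction was not tested.

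The lines were compared next without training. None of the 42 members passed between HCR and LCR sedentary rats, where 0.00966% of all probe sets did, and the smallest adjusted p in limma was 0.597. HCR rats were below LCR rats for 40 of 42, with a median of -0.12, while over all genes 49.0% were higher and the median was -0.0030. Values of 0 of 42 members separated the groups without overlap, where 4.87% of all probe sets did. This too turned on HCR sedentary 2: without it the median was -0.01 and 19 of 42 were positive. Ndufa8, a proximal subunit of the intermembrane space, was the one member with an unadjusted p under 0.05, at -0.25 ± 0.12 (SE), where 4.74% of all probe sets were lower at that p. It was at 12.13, 11.50, 12.06 and 12.09 in HCR and 12.07, 12.24, 12.30 and 12.19 in LCR sedentary rats, so that rat 2 alone was far from the LCR range, and without it the difference was -0.10. Ndufs1 differed by -0.25 ± 0.13 (SE) and Ndufaf7 by -0.19 ± 0.09 (SE), or -0.03 on its second probe set. The only positive values among the 42 were 0.04 for Ndufa4l2 and 0.00 for Ndufv3. The 95% interval lay within 1.5-fold for 41 of 42 members, all but Ndufa11.

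Among trained rats none of the 42 members passed either, where 0.374% of all probe sets did, and the smallest adjusted p in limma was 0.230, for Ndufa12. HCR rats were higher for 28 of 42, 66.7%, with a median of 0.06, and over all genes for 64.3% with a median of 0.05, so the members lay close to the background. Ndufa12 was at 12.84 to 13.07 in trained HCR rats and at 12.55 to 12.80 in trained LCR rats, without overlap, a difference of 0.26 ± 0.11 (SE). It was the one member higher at an unadjusted p under 0.05, where 11.5% of all probe sets were. Ndufs7, likewise without overlap, was at 12.96 to 13.22 against 12.59 to 12.95; 7.61% of all probe sets were wholly higher in HCR. Ndufaf4, an early assembly factor, was the one below at that p, where 8.20% of all probe sets were, with a difference of -0.27 ± 0.12 (SE) and values of 9.41, 9.08, 9.35 and 9.58 against 9.69, 9.48, 9.64 and 9.69, which overlapped through HCR trained 4. Ndufv3 was 0.31 ± 0.18 (SE) and Ndufb8 0.19 ± 0.12 (SE) higher, and Ndufb7 differed by -0.26 ± 0.13 (SE).

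**Figure D5:**
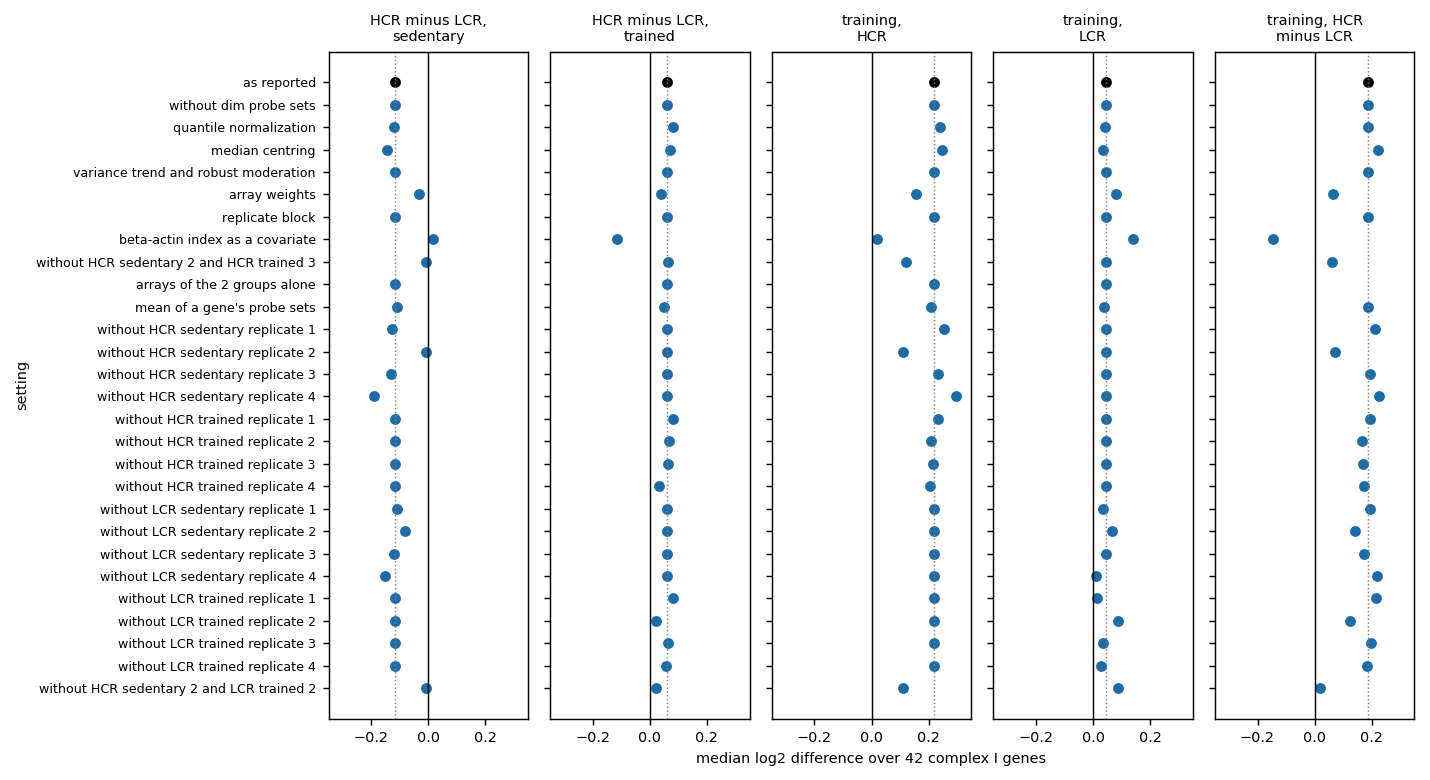
Median log2 difference over the 42 complex I genes for 5 comparisons (panels) under each processing setting or left-out array (rows); black is the value as reported and the dotted line repeats it. In HCR training the median goes from 0.22 to 0.11 without HCR sedentary 2 and to 0.02 when the beta-actin index is in the model.

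Averaged over the lines, training gave 37 of 42 members a positive difference with a median of 0.13; none passed, where 0.00644% of all probe sets did, and 16 were higher at an unadjusted p under 0.05, where 5.29% of all probe sets were. That median was 0.08 without HCR sedentary 2, with 32 of 42 positive, and 8 members were higher and 3 lower at that p, where 5.74% of all probe sets were higher and 4.91% lower. The count of 16 also fell to 5 without LCR sedentary 4, 7 without LCR trained 1, 9 without LCR trained 4 and 10 without HCR trained 2 or HCR trained 4. Averaged over training, HCR minus LCR had a median of -0.04 with 15 of 42 positive, and none passed, where 0.0870% of all probe sets did. This median turned to 0.01 without HCR sedentary 2, with 27 of 42 positive. For all 42 members the 95% interval of this line difference lay within 1.5-fold, and for training it did so for all but Ndufv3.

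The other genes that bear on complex I were read from lists of assembly factors without the Nduf prefix, of the other complexes, of NADH supply and of regulators. Of 14 other assembly genes none passed in any comparison of all 16 arrays. In HCR training their median was 0.20 with 11 of 14 higher, and in LCR -0.07 with 4 of 14 higher. Without HCR sedentary 2, where their mean was -0.30 against 0.05 to 0.13 in the other sedentary HCR rats, the HCR median was 0.08 with 10 of 14 higher. Timmdc1, a membrane-arm assembly factor, had the smallest adjusted p of these between trained lines, 0.083 in limma, with a difference of 0.26 ± 0.07 (SE). Acad9, an acyl-CoA dehydrogenase that doubles as an assembly factor with Ndufaf1 and Ecsit, differed most between the lines. It was at 10.89, 10.14, 11.18 and 10.42 in HCR sedentary rats, at 11.50, 11.22, 8.32 and 10.74 in HCR trained rats, and between 8.22 and 9.66 in all 8 LCR rats. Thus 7 of 8 HCR rats lay above every LCR rat, and HCR trained 3, the rat of high fast-fibre signal, lay among the LCR rats. Among sedentary rats the lines did not overlap for Acad9, as for 4.87% of all probe sets in either direction. Acad9 was read from its brightest probe set alone, and the part of the probes in this difference was not tested. Its HCR minus LCR difference was 1.94 ± 0.55 (SE) sedentary and 1.51 ± 0.55 (SE) trained, with adjusted p of 0.440 and 0.152 in limma. Without HCR trained 3 the difference between trained lines was 2.22 and passed, with an adjusted p of 0.0189 in limma. Without that rat Nubpl, which delivers iron-sulphur clusters to complex I, passed as well, at 0.66 with an adjusted p of 0.0337, where it was 0.40 over all arrays. Between trained lines Acad9 and Nubpl each passed only in this 1 of 16 fits that left out 1 rat. Over those fits the adjusted p in limma reached 0.341 for Acad9 and 0.544 for Nubpl.

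Of 45 genes of complexes II to V 1 passed in HCR training and 1 in LCR training, in both cases Cox7a1, the muscle form of a complex IV subunit. It was between 6.52 and 7.01 in HCR sedentary and 8.28 and 8.97 in HCR trained rats, and between 5.94 and 7.12 in LCR sedentary and 8.19 and 8.63 in LCR trained rats. Its differences were 2.00 ± 0.22 (SE) in HCR and 1.67 ± 0.22 (SE) in LCR, with adjusted p of 0.00526 and 0.0465 in limma, and in LCR it was the 1 probe set of 31042 that passed. With 1 rat left out, Cox7a1 passed in 16 of 16 fits in HCR, and in LCR in 4 of 16, with adjusted p from 0.0259 to 0.309 and differences of 1.44 to 1.83. The list as a whole had a median of 0.14 in HCR training with 40 of 45 higher and 0.02 in LCR with 27 of 45 higher, beside 0.22 and 0.04 for the complex I members. The mean of the 45 genes on HCR sedentary 2 was -0.36, and on the other arrays -0.12 to 0.12. Without that array the HCR median was 0.04 with 31 of 45 higher.

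Of 15 genes that supply NADH, dehydrogenases and shuttles of the matrix, none passed. Their median in HCR training was 0.16 with 14 of 15 higher, and in LCR -0.07 with 3 of 15 higher. Their mean was -0.58 on HCR sedentary 2 and 0.01 to 0.04 in the other sedentary HCR rats, and without that array the HCR median was 0.02 with 8 of 15 higher. Idh3a, a subunit of the NAD-linked isocitrate dehydrogenase, differed by 0.82 ± 0.24 (SE) in HCR, with HCR trained 3 at 12.21 and the other trained HCR rats at 10.90 to 11.20, and by 0.54 without that rat. Of 9 regulators none passed, with 6 of 9 higher in HCR training and 4 of 9 in LCR. Over the regulators the HCR median was 0.15, and 0.01 without HCR sedentary 2. Tfb2m, a mitochondrial transcription factor, differed by 0.41 ± 0.15 (SE) in HCR, or 0.22 without HCR sedentary 2, Gabpa by 0.38 ± 0.13 (SE) in LCR, and Nrf1 by -0.13 ± 0.08 (SE) and -0.07 ± 0.08 (SE) in HCR and LCR. Among the complex I genes, the 10 with NRF1 letters had a median HCR training difference of 0.14 and the 30 without 0.25, while in LCR training the order was the reverse, 0.09 with and 0.04 without. The 12 with YY1 letters had 0.24 in HCR and the 28 without 0.22, and in LCR -0.0048 and 0.06.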

How the data were processed

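The deposited values are log2 expression values per probe set, 1 array per rat. The submitters' processing notes name RMA and limma; their versions are not given in the sources used here. Array medians were near-equal, 5.90 to 5.98, so a shift common to all genes would be lost. The number of arrays limits the precision, and scan batches were not analysed here.

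From these values, 4 group means over 16 arrays were fitted with limma 3.58.1 in R 4.3.3 (12 residual degrees of freedom), with Benjamini-Hochberg adjustment over 31042 probe sets (57 controls left out) at a threshold of 0.05. The fit was tested on simulated data. The labels describe separate rats, and the error is that between rats. Of the probe sets, 20826 had 1 symbol, 436 several and 9780 none; no gene was named from several. The beta-actin index is the 3' minus the middle beta-actin control probe set.

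The members, the lists and the tests were chosen with earlier results of these data known. The naming rule took, in each comparison, members that passed, otherwise the 3 of smallest p in each direction. It also took the 2 brightest and dimmest, and a fixed set (among them Ndufs1, Ndufv1, Ndufs4, Ndufa9, Ndufb8, Ndufaf1, Ndufa4, Ndufa4l2). Not all of these are printed in every comparison: Ndufs1 and Ndufv1, for example, are left out of LCR training, trained lines and the interaction. Others were named after their values were seen. Alternatives changed filter, scaling, moderation, array weights, blocking, a covariate, the arrays fitted and each left-out rat. The comparisons share groups.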

Additional observations from a re-analysis of the deposited data

Results flagged for a closer look

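In 172 groups of 4 values (42 members and the members' mean, in 4 groups), 18 had 1 rat far from the other 3, with a gap above 0.829 of the group's range. Chance flags about 1 in 20 such groups. Of these, 8 lay on HCR sedentary 2, each below its group: Ndufa5 at 9.34, Ndufa8 at 11.50, Ndufa9 at 11.70, Ndufaf8 at 8.76, Ndufb7 at 11.53, Ndufb9 at 12.84, Ndufc1 at 11.53 and Ndufv2 at 12.04. Another 3 lay on LCR trained 2, also below: Ndufs7 at 12.59, Ndufv1 at 11.82 and Ndufv2 at 12.33. On HCR trained 1, Ndufaf5 at 7.74, Ndufb2 at 12.09 and Ndufb3 at 12.72 were below the other trained HCR rats.

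The remaining 4 were scattered. Ndufa1 was at 13.06 on HCR trained 4, above its group. Ndufaf1 was at 6.31 on both HCR sedentary 3 and LCR trained 4, below each group, and Ndufaf5 was at 8.20 on LCR sedentary 2, above its group.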

How the results depend on the processing

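Under every planned setting and every left-out rat, 0 members passed in the sedentary line, trained line, LCR training, interaction and average line comparisons. In HCR training 0 to 1 passed over the left-out rats (Ndufa12, without HCR sedentary 4, at 0.48), and with array weights 2 passed in training averaged over lines (Ndufa4l2 and Ndufv3). With the beta-actin index in the model the median was -0.11 between trained lines and -0.15 in the interaction. The index itself differed along these contrasts, with means of 1.90 in trained HCR and 1.27 in trained LCR rats. Leaving out 1 rat each, the median ran from 0.11 to 0.30 in HCR training, 0.01 (without LCR sedentary 4) to 0.09 (without LCR trained 2) in LCR training, -0.19 to -0.01 between sedentary lines, 0.02 to 0.08 between trained lines and 0.07 to 0.23 in the interaction; the cause was not tested. With array weights it was 0.15 in HCR training and -0.03 between sedentary lines. Without both HCR sedentary 2 and LCR trained 2, a setting added after the data were seen, the HCR training median was 0.11. Replicate numbers were not used to pair the samples in the main fit. Same-numbered arrays had correlations of deviations from -0.48 to 0.57, and such values alone cannot decide a pairing. With the replicate block 0 members passed and the HCR training median was 0.22. At an unadjusted p under 0.05, 19 members were then higher, where 10.1% of all probe sets were. For the lists of other genes and the fibre markers, leaving out single rats was added after the data were seen. With 4 rats a group, the SE of a member's training difference was between 0.06 (Ndufs4) and 0.18 (Ndufv3), which limits what these arrays can show.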
